A study of Mus musculus with 16 samples.

Results

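Nr4a1, Nr4a2, Nr4a3, Sik1, Crem, Npas4, Arc and Rgs2 are genes known to respond to calcium and cAMP, and they were taken as a fixed list of 8 symbols from the deposited table of whole-number gene counts. All 8 were among its 23329 genes. After a filter on low counts 10820 genes were tested, and 6 of the 8 were among them. The cells were BetaTC6, a line of mouse β-cells derived from an insulinoma on a C57BL/6 background. Cells labelled wild type and cells labelled P2ry1 knockout were, per the labels, cultured for 3 days and preincubated without glucose. All cells then received 20 mM glucose for 30 min, together with either ivermectin or DMSO as vehicle. P2ry1 encodes a purinergic receptor coupled to calcium release, and ivermectin is an antiparasitic drug that acts on ligand-gated ion channels. The 16 libraries formed 4 groups of 4, namely vehicle and ivermectin in wild-type cells and vehicle and ivermectin in the knockout-labelled line. No group without glucose was analysed here, and the labels name neither the dose of ivermectin nor the number of knockout clones. The design asks how ivermectin changed transcript levels in β-cells, and whether the response depended on P2ry1.

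When cytosolic calcium or cAMP rises, protein kinase A and calmodulin-dependent kinases phosphorylate the transcription factor CREB on cAMP response elements, and calcineurin frees its CRTC coactivators to enter the nucleus. Genes of the immediate-early class, the Nr4a orphan nuclear receptors among them, are then transcribed within minutes without new protein synthesis. Feedback comes from salt-inducible kinases such as Sik1, which hold CRTC in the cytoplasm, and from short repressor products of Crem. In β-cells this circuit is engaged by glucose and by incretin hormones.

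Since the listed genes are defined by their response to this pathway, the sequence upstream of their start sites was read first. The promoter table of RefSeq (GRCm38.p6) held 5 of the 8 genes, namely Nr4a1, Nr4a2, Nr4a3, Npas4 and Rgs2. It had no entry for Sik1, Crem and Arc. The CRE half-site TGACG, on either strand, was present in the 250 bases upstream of the start in 5 of 5 genes. It was present in 17.8% of 32851 windows of the same length. These 5 windows were rich in G and C, between 63.6% and 80% against a median of 52.4% for all windows. Among the 6582 windows with at least 63.6% G and C, 28% held the half-site. Nr4a1, Nr4a2 and Nr4a3 held 4 half-sites each, and Npas4 and Rgs2 held 2 each. The full palindrome TGACGTCA occurred in none of the 5 windows and in 1.55% of all windows. None of the 5 held the Nr4a response element AAAGGTCA (1.34% of all windows), the TATA sequence TATAAA (7.59%) or the CArG box of serum response factor (1.47%). Of the genes that passed a test below, Nr4a2 spans chr2:57106830-57124003, Sik1 chr17:31844248-31855804 and Arc chr15:74669081-74672570 in that build. A match of letters is a description and not a measured binding site.

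Nr4a1 is shown over all 250 bases as the listed gene that passed for ivermectin in wild-type cells, a call lost under several alternatives. Its window lies on the plus strand of chromosome 15, at chr15:101266596-101266845, inside the annotated span of the gene (chr15:101253902-101274795) and upstream of the start used by the table. Capitals mark each half-site, as TGACG or as its reverse complement CGTCA, and the letters run 5′ to 3′ on the strand of the gene. The 4 half-sites lay 233, 213, 69 and 40 bases before the start.
Nr4a1: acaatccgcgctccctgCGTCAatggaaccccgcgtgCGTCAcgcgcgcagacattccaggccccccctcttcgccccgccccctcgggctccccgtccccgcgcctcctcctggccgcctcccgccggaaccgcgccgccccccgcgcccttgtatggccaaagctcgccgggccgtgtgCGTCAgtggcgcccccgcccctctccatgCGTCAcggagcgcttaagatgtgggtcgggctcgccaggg

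Stretches of 30 bases are shown for the 3 other genes in which half-sites lie closest together, with the same use of capitals. The Nr4a2 stretch (chr2:57124103-57124132, minus strand) held 2 sites in the same direction with 7 bases between them. The Nr4a3 stretch (chr4:48045084-48045113, plus strand) held 2 sites on opposite strands, reading away from each other, with 3 bases between them, and the Npas4 stretch (chr19:4990128-4990157, minus strand) 2 such sites with 5 bases between them.
Nr4a2: ccgggcTGACGgggccgcTGACGcgcttgg
Nr4a3: tcccatgtCGTCAcatTGACGtctcgcatt
Npas4: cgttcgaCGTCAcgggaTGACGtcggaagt

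Library totals ranged from 893088 to 2013242 counts, and the wild-type vehicle group held the 4 lowest (893088 to 1064787 against 1361146 or more elsewhere). P2ry1 itself, the targeted gene, was at 94.6 CPM ± 8.57 with vehicle and 93.1 ± 7.58 with ivermectin in wild-type cells (SD, n = 4). It was at 84.0 ± 8.98 with vehicle and 85.5 ± 4.95 with ivermectin in the knockout-labelled line (SD, n = 4). CPM are counts scaled to a common library total with TMM factors. The ranges per group, in that order, were 85.5 to 106, 88.0 to 104, 72.8 to 94.8 and 81.0 to 92.6 CPM, so the P2ry1 transcript did not separate the lines (log2 difference -0.17 in vehicle and -0.11 under ivermectin, edgeR adjusted p = 0.245 and 0.394). The labels do not say which part of the gene was edited, so counts per gene cannot check them, and directions below refer to the line labelled P2ry1 knockout. The 11 β-cell markers summed to between 33630 and 43630 CPM in every library. The delta-cell markers Sst and Hhex summed to 202.9 CPM or more in wild-type and 26.54 CPM or less in knockout-labelled libraries. This sum was nearly all Sst, since Hhex averaged 1.315 CPM or less in every group. Hepatocyte markers, 33 of 33 with counts in every group and none at 0, summed to 1031 to 2842 CPM in wild-type vehicle libraries. The same sum was 273.6 to 591 CPM in wild-type ivermectin, 102.7 to 207.3 in knockout-labelled vehicle and 138.4 to 451.2 in knockout-labelled ivermectin libraries. In these bulk libraries fewer cells of a type and less RNA per cell cannot be told apart.

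Per transcript length, Nr4a1 was the most abundant of the 8 genes and Nr4a3 the least. In TPM, transcript counts scaled by transcript length and to a common total, wild-type vehicle libraries held 37.0 ± 2.92 of Nr4a1, 21.5 ± 3.96 of Crem and 8.13 ± 2.66 of Nr4a2 (SD, n = 4). These 3 genes did not overlap one another in that group. Rgs2 followed at 3.50 ± 2.50, Sik1 at 3.36 ± 0.355 and Arc at 3.23 ± 1.94 TPM, and these overlapped. Npas4 stood at 1.98 ± 0.579 and Nr4a3 at 0.67 ± 0.448 TPM. The receptor family was thus unevenly expressed in these cells, with Nr4a1 above Nr4a2 and Nr4a2 above Nr4a3 in every group mean. In knockout-labelled ivermectin libraries the order of means was Nr4a1 (34.2 TPM), Crem (16.1), Nr4a2 (4.04), Rgs2 (3.21), Arc (1.55), Sik1 (1.12), Npas4 (1.05) and Nr4a3 (0.465), so that the Sik1 mean was below that of Arc, although these genes overlapped in both groups.

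**Figure D1:**
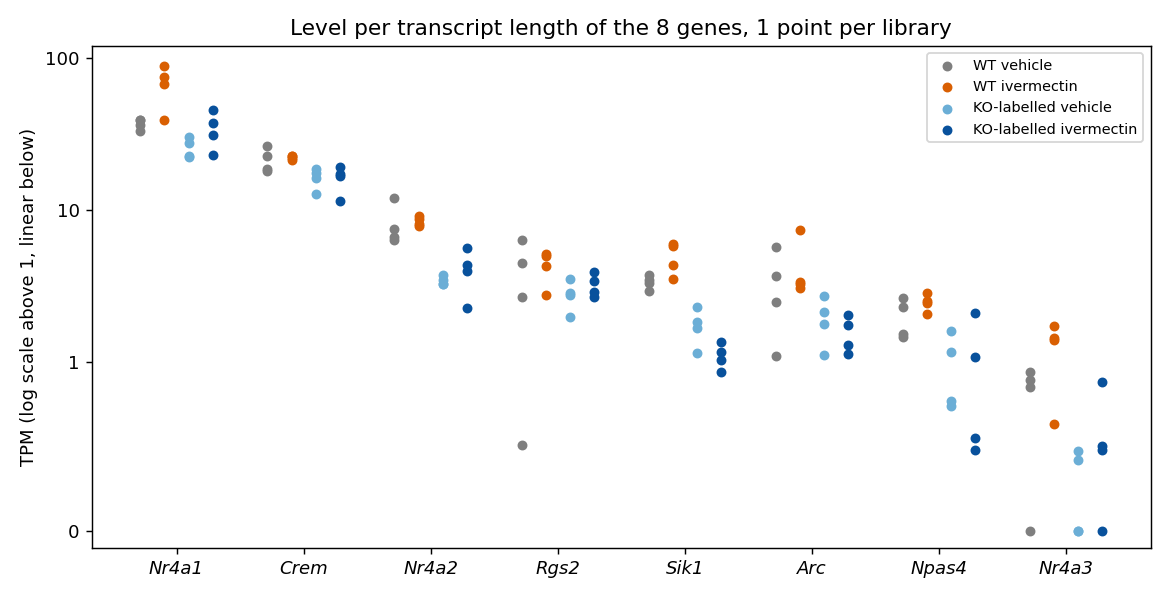
Level per transcript length of the 8 genes, in TPM on an axis that is logarithmic above 1 and linear below it, with 1 point per library coloured by group. Nr4a1 and Crem are the highest in each group, and Nr4a3 reaches 0 in 4 libraries.

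The 6 tested genes did not reach the test in the same way. The filter kept genes at 6.01 CPM or more in at least 4 libraries. Nr4a1 and Crem met that level in 16 of 16 libraries and Nr4a2 in 15. Sik1 met it in 8 of 8 wild-type and in 1 of 8 knockout-labelled libraries, Arc in 6 wild-type and 0 knockout-labelled libraries, and Rgs2 in 8 libraries spread over the 4 groups. Sik1 and Arc therefore entered the test through the wild-type libraries, and counts and medians over the 6 tested genes are not read as support for a direction. Npas4 and Nr4a3 met the level in no library and are described separately.

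**Figure D2:**
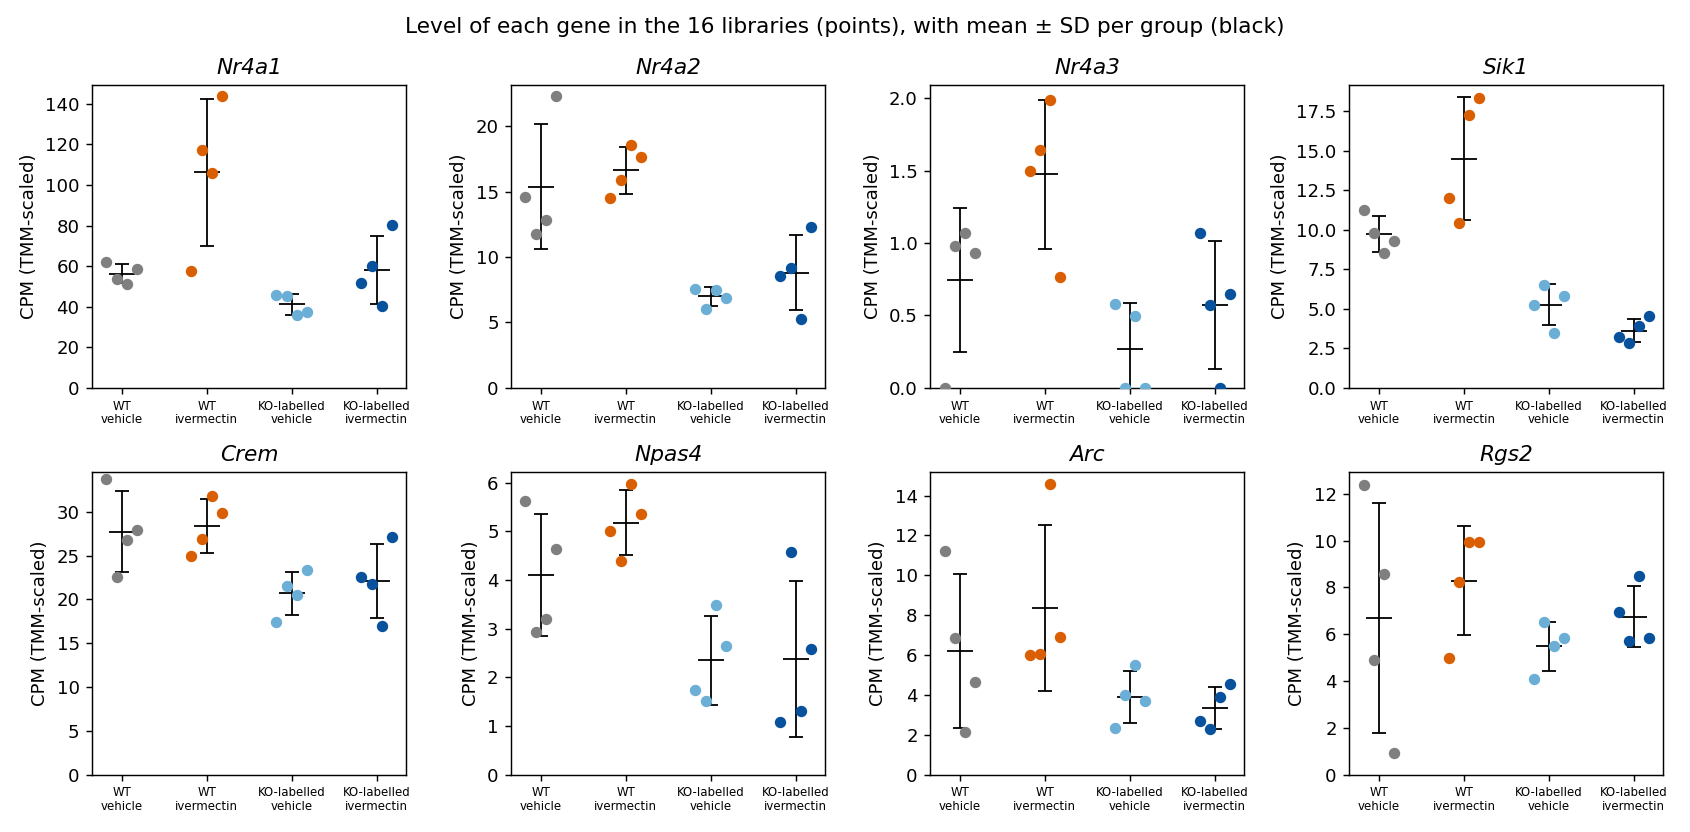
TMM-scaled CPM of each gene in the 16 libraries (points) with the mean and SD of each group of 4 (black), on axes that start at 0. Sik1 in wild-type ivermectin libraries (10.4 to 18.4 CPM) lies above every knockout-labelled library, and 1 wild-type ivermectin library of Nr4a1 lies among the vehicle values.

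In the wild-type line Nr4a1 was higher in ivermectin than in vehicle libraries, and no other tested gene of the list passed the threshold. Nr4a1 encodes an orphan nuclear receptor also known as Nur77. Nr4a1 stood at 61.8, 53.8, 51.3 and 58.5 CPM in the vehicle libraries and at 57.5, 117, 106 and 144 CPM in the ivermectin libraries. Of the ivermectin libraries 3 lay above all vehicle libraries, and replicate 1 lay within the vehicle range. Replicate 4, the highest, also held 2.99% of its counts in the ribosomal RNA precursor Rn45s, against 0.601% or less in the other 15 libraries. With Rn45s and Lars2 left out the change was as large (0.88, edgeR adjusted p = 0.0089), and without replicate 4 it was 0.71. The group means were 56.4 ± 4.72 and 106 ± 36.2 CPM (SD, n = 4). The change was 0.88 on the log2 scale (SE 0.193, 95% interval 0.49 to 1.27), 1.84-fold, with an edgeR adjusted p of 0.0108. Thus 1 of 6 tested genes was called, where 0.601% of all tested genes were called in either direction and 0.0555% were called higher.

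That call did not hold under several alternatives. It was lost without wild-type vehicle replicate 2 (edgeR adjusted p = 0.0561) or replicate 3 (0.0694), and without wild-type ivermectin replicate 2 (0.0753) or replicate 4 (0.073). The log2 change stayed between 0.71 and 1.11 whichever of the 8 libraries was left out. DESeq2 gave 0.91 with an adjusted p of 0.123. Without wild-type ivermectin replicate 1, the low library, the change was 1.11 (edgeR adjusted p = 2.79e-06). With the log2 level of the liver transcript Alb as a covariate it was 0.33 (edgeR adjusted p = 1). Alb stood at 328 to 923 CPM in wild-type vehicle and at 57.7 to 172 CPM in wild-type ivermectin libraries, so in this comparison Alb and the treatment cannot be told apart.

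The relatives and feedback genes of Nr4a1 did not pass in the wild-type line. Nr4a2, a second receptor of the family, stood at 14.6, 11.7, 12.8 and 22.3 CPM in vehicle and 14.5, 15.9, 18.6 and 17.6 CPM in ivermectin libraries, and the groups overlapped. Its log2 difference was 0.09 (95% interval -0.40 to 0.57, edgeR adjusted p = 1). Crem, the source of the inducible repressor, differed by 0.03 (95% interval -0.32 to 0.38, edgeR adjusted p = 1). Counts per gene do not separate that short repressor from the other Crem products.

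Sik1, the kinase that restrains CRTC, stood at 11.2, 9.78, 8.55 and 9.29 CPM in wild-type vehicle and at 12.0, 10.4, 17.2 and 18.4 CPM in wild-type ivermectin libraries. Of the ivermectin libraries 3 exceeded every vehicle library. The log2 difference was 0.54 (95% interval -0.01 to 1.09, edgeR adjusted p = 0.964). Arc, a cytoskeleton-associated immediate-early gene best known from neurons, differed by 0.41 (SE 0.396, edgeR adjusted p = 1). For Rgs2, which accelerates the shut-off of Gq proteins, the difference was 0.32 (SE 0.389, edgeR adjusted p = 1). The median of the 6 log2 changes was 0.37 against 0.0003 for all tested genes, and 6 of 6 were above 0, as were 50.1% of all tested genes.

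In the knockout-labelled line none of the 6 tested genes passed the threshold, and edgeR called 0% of all tested genes there, with a smallest adjusted p of 0.521. At an unadjusted p under 0.05 there were 820 genes, 7.58% of those tested, and 1 of the 6 listed genes. DESeq2 also called 0 of the 6. That gene was Nr4a1, at 45.9, 45.1, 35.9 and 37.6 CPM in vehicle and 51.5, 60.0, 40.5 and 80.2 CPM in ivermectin libraries. Replicates 1, 2 and 4 exceeded every vehicle library, and replicate 3 did not. The log2 difference was 0.50 (95% interval 0.10 to 0.89, edgeR adjusted p = 0.606). Without the low-count filter it was 0.49 and passed (edgeR adjusted p = 0.0472).

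For Sik1 the difference in the knockout-labelled line had the opposite sign, with 5.23, 6.52, 3.49 and 5.83 CPM in vehicle and 3.22, 2.86, 3.92 and 4.53 CPM in ivermectin libraries. These groups overlapped, and the log2 difference was -0.54 (95% interval -1.25 to 0.17, edgeR adjusted p = 0.741). The remaining differences were 0.34 for Nr4a2 (edgeR adjusted p = 0.798), 0.28 for Rgs2 (0.881), 0.09 for Crem (0.928) and -0.25 for Arc (0.928).

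Whether the response to ivermectin differed between the lines was tested directly as an interaction. None of the 6 passed, and 0.222% of all tested genes did. Sik1 had the largest difference, -1.08 on the log2 scale (SE 0.443, 95% interval -1.98 to -0.18), with an edgeR adjusted p of 0.926. It was the only one of the 6 at an unadjusted p under 0.05, as were 5.11% of all tested genes, and DESeq2 called 0 of the 6. Nr4a1 differed by -0.38 (95% interval -0.95 to 0.18, edgeR adjusted p = 1), so its pass in the wild-type line alone was not shown to be a difference between the lines. The other values were -0.66 for Arc, 0.25 for Nr4a2, 0.06 for Crem and -0.04 for Rgs2 (edgeR adjusted p = 1 for each).

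**Figure D3:**
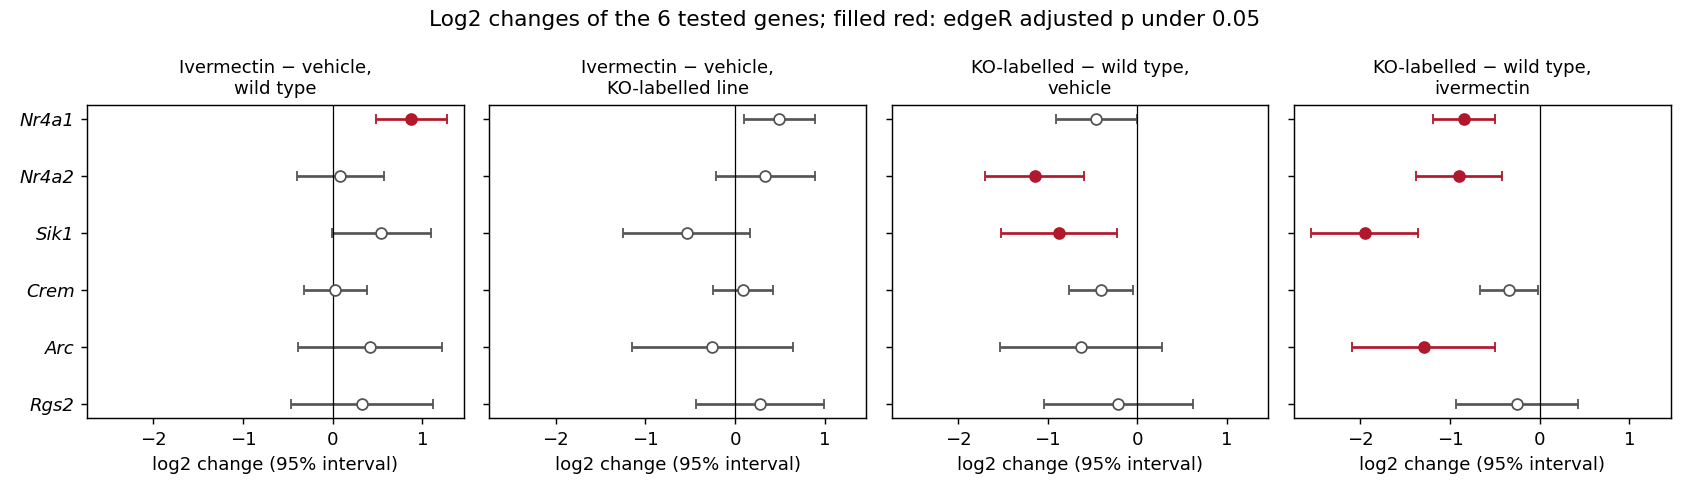
Log2 change of the 6 tested genes (points) with 95% intervals (bars) in the 4 comparisons, with filled red points where the edgeR adjusted p was under 0.05. Nr4a1 passed with ivermectin in the wild-type line, and Nr4a1, Nr4a2, Sik1 and Arc were lower in the knockout-labelled line under ivermectin.

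In vehicle, Nr4a2 and Sik1 were lower in the knockout-labelled line. Nr4a2 stood at 15.4 ± 4.77 CPM in wild-type and 6.99 ± 0.710 CPM in knockout-labelled vehicle libraries (SD, n = 4), and the 4 knockout-labelled values, 7.55, 6.02, 7.48 and 6.89 CPM, all lay below the 4 wild-type ones. It fell by 1.15 on the log2 scale (95% interval -1.70 to -0.59), 2.21-fold lower, with an edgeR adjusted p of 0.00195. Sik1 fell from a mean of 9.72 CPM (8.55 to 11.2, n = 4) to 5.27 CPM (3.49 to 6.52, n = 4), again without overlap. Its log2 change was -0.87 (95% interval -1.52 to -0.23, edgeR adjusted p = 0.0475).

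The Sik1 result lay close to the threshold. Its adjusted p was 0.116 with DESeq2, 0.0895 without the low-count filter and 0.0548 with only the 8 libraries compared in edgeR. With every library thinned to the smallest total it was 0.085. The log2 change under these 4 alternatives stayed between -0.96 and -0.84. A replicate block lost the call as well (edgeR adjusted p = 0.0548). Leaving out 1 library at a time lost the call in 7 of 8 cases, with edgeR adjusted p up to 0.135 and log2 changes of -0.997 to -0.71 over the 8 cases, and kept it only without knockout-labelled vehicle replicate 2 (0.0368).

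Nr4a1 also stood lower without overlap, at 56.4 ± 4.72 against 41.1 ± 5.11 CPM, with a log2 difference of -0.46 and an edgeR adjusted p of 0.143. It did pass without the low-count filter (-0.43, edgeR adjusted p = 0.0172) and with only the 8 libraries compared (0.0103). The Crem difference was -0.41 (edgeR adjusted p = 0.102), that of Arc -0.63 (0.342) and that of Rgs2 -0.21 (0.765). In this comparison 2 of 6 listed genes were called, both lower, where 20.7% of all tested genes were called in either direction and 10.8% lower. For 3 of 6 the groups did not overlap, all lower, as for 11.4% of all tested genes. Both counts include Sik1, which entered the test through the wild-type libraries, and neither is read as support for a direction.

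The wild-type vehicle group of this comparison was also the group of low library totals and of high liver transcripts, with Alb at 328 to 923 CPM against 17.1 to 52.3 CPM in knockout-labelled vehicle libraries. With Alb as a covariate the Nr4a2 difference was -1.29 and did not pass (edgeR adjusted p = 0.21). Under the same covariate Sik1 was at -1.07 and its call was lost (0.437) and Nr4a1 passed at -1.29 (0.0485). Alb and the line cannot be told apart among vehicle libraries.

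Under ivermectin 4 of the 6 tested genes were lower in the knockout-labelled line: Sik1, Arc, Nr4a2 and Nr4a1. Sik1 and Arc entered the test through the wild-type libraries, so this count is not read as support for a direction. Alb levels of the ivermectin groups overlapped (57.7 to 172 CPM in wild-type and 28.0 to 144 CPM in knockout-labelled libraries). The summed delta-cell markers, nearly all Sst, did not, at 211 to 248.4 against 15.31 to 26.54 CPM. Their part in the result was not tested. Sik1 had the largest difference, from 12.0, 10.4, 17.2 and 18.4 CPM in wild-type libraries to 3.22, 2.86, 3.92 and 4.53 CPM. The highest knockout-labelled library was below the lowest wild-type one. The log2 change was -1.95 (SE 0.293, 95% interval -2.55 to -1.36), 3.87-fold lower, with an edgeR adjusted p of 3.64e-06. Of all tested genes 27.8% were called in this comparison and 13.9% were called lower.

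Both tested nuclear receptors were lower as well. Nr4a2 stood at 16.6 ± 1.81 CPM in wild-type and at 8.58, 9.14, 5.23 and 12.3 CPM in knockout-labelled ivermectin libraries, without overlap. It fell by 0.90 on the log2 scale (95% interval -1.37 to -0.42, edgeR adjusted p = 0.00406). Nr4a1 went from 106 ± 36.2 to 58.0 ± 16.8 CPM (SD, n = 4), a log2 change of -0.84 (95% interval -1.18 to -0.49, edgeR adjusted p = 0.000289). Its groups overlapped, since wild-type replicate 1 (57.5 CPM) was below knockout-labelled replicates 2 and 4 (60.0 and 80.2 CPM). Sik1, Nr4a1 and Nr4a2 stayed past the threshold in every alternative run for this comparison.

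Arc was at 6.00, 6.03, 14.6 and 6.89 CPM in wild-type and at 2.68, 2.29, 3.92 and 4.53 CPM in knockout-labelled ivermectin libraries. All wild-type values were higher, and replicate 3 stood well above the other wild-type libraries. These levels rest on 9 to 22 counts per wild-type and 4 to 7 per knockout-labelled library. The log2 change was -1.29 (95% interval -2.09 to -0.49, edgeR adjusted p = 0.0127). Without wild-type ivermectin replicate 3 it was -0.91 and did not pass (edgeR adjusted p = 0.106), and after thinning it was -1.13 (0.168).

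Crem and Rgs2 did not pass under ivermectin. Crem stood at 25.0 to 31.8 CPM in wild-type and 17.0 to 27.2 CPM in knockout-labelled libraries, a log2 difference of -0.34 (edgeR adjusted p = 0.104). Rgs2 stood at 4.998 to 9.95 and 5.71 to 8.49 CPM, a difference of -0.25 (95% interval -0.94 to 0.43, edgeR adjusted p = 0.616). For 3 of the 6 genes the groups did not overlap, all lower, where 12.7% of all tested genes had that pattern. These 3 were Nr4a2, Sik1 and Arc, so this count too rests on genes kept through the wild-type libraries. It is not read as support for a direction. The 2 comparisons between the lines use different libraries. The 6 log2 differences had a median of -0.54 in vehicle and -0.87 under ivermectin, against -0.0007 and -0.0004 for all tested genes, and both medians include Sik1 and Arc, which entered the test through the wild-type libraries.

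Npas4, a calcium-dependent transcription factor of the bHLH-PAS class, lay below the filter with 84 counts over all libraries. It stood at 5.62, 2.93, 3.21 and 4.65 CPM in wild-type vehicle, and at 4.998, 4.39, 5.97 and 5.36 CPM in wild-type ivermectin libraries. In knockout-labelled libraries it stood at 1.74, 1.51, 3.49 and 2.65 CPM in vehicle and at 1.07, 4.57, 1.31 and 2.59 CPM with ivermectin. Under ivermectin 3 of 4 knockout-labelled libraries were below all wild-type ones. The ratio of the means was 0.461 there, with an exact two-sided permutation p of 0.0571, where 0.0286 is the smallest that 4 against 4 libraries allow. In vehicle the ratio was 0.572 (exact permutation p = 0.114). Ivermectin against vehicle gave ratios of 1.26 in the wild-type line (exact permutation p = 0.2) and 1.02 in the knockout-labelled line (exact permutation p = 1).

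Nr4a3, the third receptor of the family, had 19 counts in all. Wild-type vehicle libraries held 0, 1, 1 and 1 counts and wild-type ivermectin libraries 3, 3, 3 and 1. Knockout-labelled libraries held 1, 0, 1 and 0 counts in vehicle and 2, 1, 0 and 1 with ivermectin. Every library was at or below 3 counts, the limit that a count of 0 allows (1.49 to 3.36 CPM depending on the library), so no difference was detectable at this depth and no fold is given. The exact permutation p-values were 0.114 and 0.314 for ivermectin in the wild-type and knockout-labelled lines. Between the lines they were 0.229 in vehicle and 0.0571 under ivermectin.

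Levels of the listed genes were also compared pairwise across libraries. Over the 16 libraries Pearson's r of log2 CPM was above 0 for 14 of 15 pairs of tested genes, with a median of 0.641, and was highest for Nr4a2 and Crem (0.84). Group differences contribute to these values. With each group's mean removed the values ran from -0.497 to 0.614, the latter for Nr4a2 and Crem, with a median of 0.302. The share of pairs above 0 was not computed for other genes. Rgs2 had the 5 lowest values over all libraries, from -0.103 (Nr4a2) to 0.33 (Arc). With the group means removed its values ran from -0.497 (Nr4a2) to 0.302 (Arc), within the range of other pairs except for Nr4a2. Points share library size and scaling, and no test is attached to them. Single libraries were high or low for several genes at once. Wild-type ivermectin replicate 1 was the lowest of its group for 5 of the 6 genes, all but Sik1. Knockout-labelled ivermectin replicate 4 was the highest of its group for 5 of 6, all but Rgs2, and wild-type vehicle replicate 1 for 5 of 6, all but Nr4a2.

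Outside the list, the genes with the profile most like that of Nr4a1 over the 16 libraries were Dusp1 (r = 0.888), Fam46a (0.867) and Nap1l5 (0.85), among 8663 genes averaging 4 or more in log2 CPM. Dusp1 encodes a phosphatase of MAP kinases and is itself an immediate-early gene. Stc1 (0.851) and Ppp6r3 (0.842) were among the genes most like Crem. The other listed genes were too low for this comparison.

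The rest of the pathway was followed through 40 further genes reported to respond to CREB, cAMP or calcium, of which 33 were tested. This list was chosen with earlier results of these data known, so its counts are not read as support. With ivermectin in the wild-type line 5 rose and 1 fell, where 0.601% of all tested genes were called in either direction and 0.0555% higher. The 5 were the transcription factors Egr1 (log2 change 1.53, edgeR adjusted p = 2.1e-09), Fos (1.28, 0.000616) and Junb (0.91, 0.000192), with Ier2 (0.87, 0.00766) and the antiproliferative gene Btg2 (0.70, 0.0036). The Nr4a1 change, 0.88, lay between those of Junb and Ier2, and differences between genes were not tested. The gene that fell was Pck1, a gluconeogenic enzyme also expressed in liver, at -2.83 (edgeR adjusted p = 0.000127), and it moved with the hepatocyte markers, of which 31 of 33 were called lower. The part of other cells in it was not tested. In the knockout-labelled line 0 of 33 passed. Egr1 was the one gene of this list past the threshold for the difference of the response between the lines, at -1.22 (edgeR adjusted p = 0.000361). When Alb was a covariate, 1 of all tested genes passed for ivermectin in the wild-type line and 0 for that difference, so the Egr1 interaction call and all or all but 1 of the calls above were lost.

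**Figure D4:**
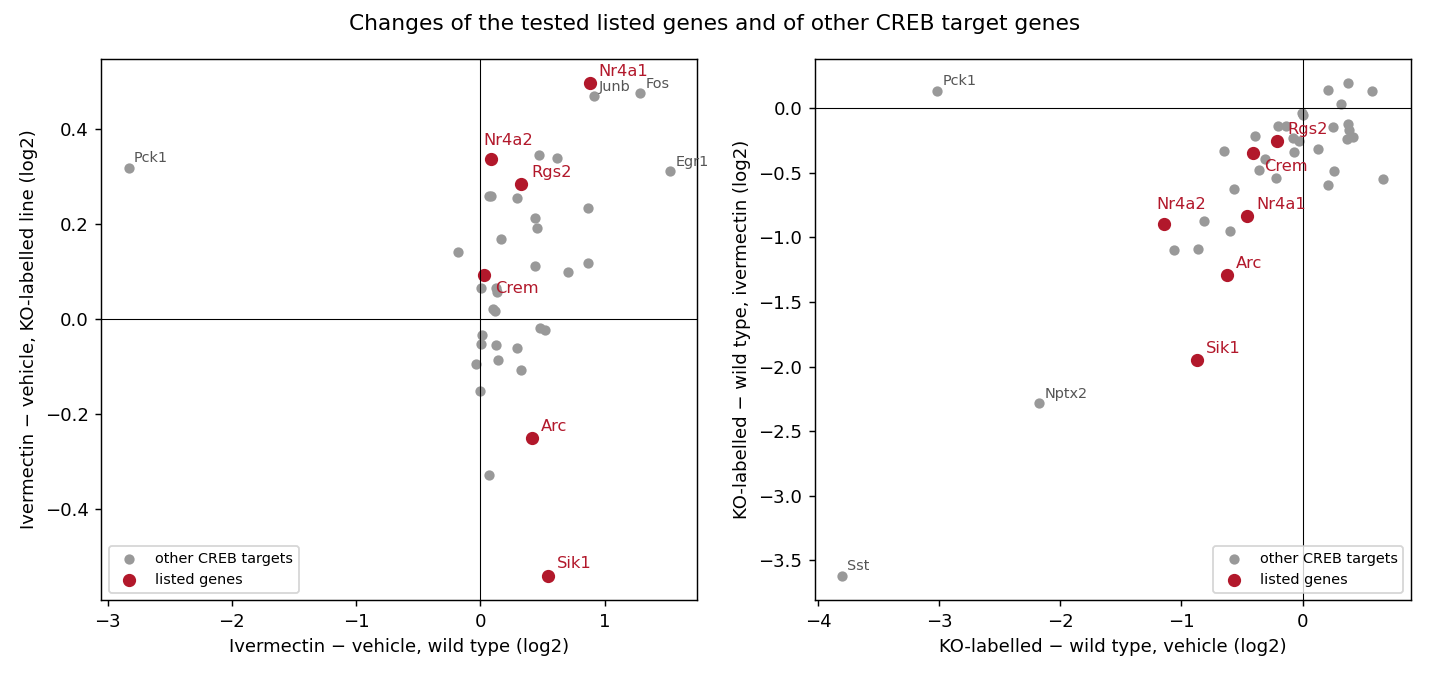
Log2 changes of the 6 tested listed genes (red) and of 33 other CREB target genes (grey), for ivermectin against vehicle in each line (left) and for the knockout-labelled against the wild-type line in each treatment (right). Nr4a1 lies beside Junb on the left, and on the vertical axis of the right panel (ivermectin) Sik1 lies below all grey points but Sst and Nptx2.

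Between the lines the same list was called in both directions. In vehicle 3 of 33 were higher and 8 lower, and under ivermectin 1 was higher and 12 lower, beside 20.7% and 27.8% called among all tested genes. The falls with the smallest adjusted p were those of the hormone gene Sst (-3.80 in vehicle, edgeR adjusted p = 2.92e-23, and -3.62 under ivermectin, 1.65e-23) and of Nptx2, a secreted pentraxin (-2.18, 4.07e-16, and -2.28, 1.63e-17). Pck1 fell by 3.01 in vehicle (edgeR adjusted p = 3.97e-06), beside 33 of 33 hepatocyte markers called lower there. Irs2, the insulin receptor substrate, fell by 0.60 in vehicle (edgeR adjusted p = 1.67e-05) and by 0.95 under ivermectin (2.33e-10). Vgf, a granule protein precursor, was higher by 0.38 and 0.19 (edgeR adjusted p = 6.54e-05 and 0.0215). Egr1 was higher in knockout-labelled vehicle libraries (0.67, edgeR adjusted p = 0.000519) and lower under ivermectin (-0.55, 0.000299). Nr4a2 and Sik1 had no such change of sign.

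The signalling steps upstream of CREB were followed through 60 genes, 51 of them tested. None passed for ivermectin in either line or for the interaction. In the knockout-labelled line 12 were lower and 2 higher in vehicle, and 18 lower and 3 higher under ivermectin, where 20.7% and 27.8% of all tested genes were called and 10.8% and 13.9% were lower. Gnas, the stimulatory G protein subunit, fell by 0.43 in vehicle and by 0.44 under ivermectin (edgeR adjusted p = 8.2e-10 and 6.04e-10). Gipr, an incretin receptor, fell by 1.63 under ivermectin (edgeR adjusted p = 7.88e-06). Pde4b, a cAMP phosphodiesterase and a member of both lists, fell by 1.06 and 1.10 (edgeR adjusted p = 3.17e-09 and 3.33e-10). The kinase anchor Akap13 (-0.84, edgeR adjusted p = 0.000119) and the transcription factor Mef2a (-0.87, 0.000171) were lower in vehicle, and the phosphodiesterase Pde10a (-0.49, 0.000162) under ivermectin. In the other treatment their means, and that of Gipr, were also lower in the knockout-labelled line. From wild-type to knockout-labelled vehicle libraries, Gipr went from 16.2 to 6.2 CPM and Pde10a from 86.8 to 70.1. Under ivermectin Akap13 went from 54.2 to 35.8 CPM and Mef2a from 29.1 to 22.4.

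Partners and relatives of the listed genes were compared between the lines as well. Creb1 stood at 64.4 ± 7.40 CPM in wild-type vehicle and 63.3 ± 3.82 CPM in knockout-labelled vehicle libraries (log2 difference -0.03, edgeR adjusted p = 0.903) and differed by -0.09 under ivermectin (0.567). Atf1, its closest relative, fell by 0.45 in vehicle (edgeR adjusted p = 0.0451), and differed by -0.16 under ivermectin (0.458). Sik2 differed by -0.39 and -0.22 (edgeR adjusted p = 0.312 and 0.494). For Sik3 the vehicle difference was -0.10 (edgeR adjusted p = 0.585), and it fell by 0.48 under ivermectin (0.000743). Rxrb, a heterodimer partner of Nr4a1 and Nr4a2, was higher in knockout-labelled vehicle libraries (0.39, edgeR adjusted p = 0.0104), and Rxra differed by -0.38 (0.122). Rgs4 differed by -0.67 in vehicle and -0.40 under ivermectin (edgeR adjusted p = 0.13 and 0.267). Rgs16 was below the filter, at 3.15 ± 2.05 CPM in wild-type vehicle and 0.590 CPM or less on average in the other groups.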

How the data were processed

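Polyadenylated RNA was sequenced, per the labels' protocols. The submitters' processing notes name STAR 2.7.2b, RSEM 1.3.3, DESeq2 1.32.0 and the build mm10, with no order. The authors deposited 1 table of whole-number counts, used for all tests, and 1 RSEM table per library with expected counts and TPM, per the file headers. Each of the 373264 values in the count table equalled the deposited expected count rounded down, and for 1 alternative the expected counts were rounded to integers. Deposited TPM values served to compare levels between genes. The normalized counts and the files of another, human study were not used here.

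Genes were kept with filterByExpr (minimum count 10, minimum total 15) and compared in edgeR 4.0.16 (R 4.3.3) by glmQLFit and glmQLFTest with TMM factors, 1 mean per group over 16 libraries, and Benjamini-Hochberg adjustment over all tested genes at 0.05. Standard errors came from the log2 change and its F statistic. Genes below the filter had exact two-sided permutation tests of CPM over 70 splits. The edgeR fit was tested on simulated counts, for ivermectin against vehicle in the wild-type line, and the other steps were not. The alternatives were relative log expression factors, DESeq2 1.42.0, no filter, a replicate block, expected counts, only the libraries compared, Alb as a covariate, thinning to the smallest total, Rn45s and Lars2 left out, and each library left out in turn.

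The listed genes, marker lists and pathway lists were chosen with earlier results of these data known. Named are the 8 genes, P2ry1, Alb, up to 4 genes by smallest adjusted p per list and comparison, fixed relatives, and the 3 most correlated genes for genes averaging 4 or more in log2 CPM. Btg2, Ier2 and Vgf, and Irs2 and Egr1 in some comparisons, fall outside that rule and were named after their values were seen. A gene that the rule gives is not reported here. The replicates differed by more than counting noise in all 24 within-group pairs, with chi-squared per degree of freedom from 1.16 to 7.36. The labels do not say that replicates are separate cultures, so p-values measure only the spread between these libraries. Limits for a count of 0 (3 counts) cover counting error only.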

Additional observations from a re-analysis of the deposited data

Results flagged for a closer look

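Each of the 8 genes, P2ry1 and the library totals were examined in each of the 4 groups for 1 library far from the other 3. These were 40 groups in all, and chance would single out about 1 in 20. Alb was not examined in this way. A pair stood out. Arc in wild-type ivermectin replicate 3 was at 14.58 CPM, against 5.997 to 6.89 CPM in the other 3 libraries of its group. Nr4a3 in wild-type vehicle replicate 1 was at 0 CPM, against 0.929 to 1.069 CPM in the other 3, which is a difference of 0 from 1 count.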

How the results depend on the processing

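The numbers of genes past the threshold moved under several alternatives. For ivermectin in the wild-type line 65 genes passed in all, 140 without the filter and 1 with Alb, and leaving out single libraries gave 53 to 86. The 1 listed gene past the threshold there became 0 with DESeq2 and with Alb, and 0 to 1 without single libraries. In the knockout-labelled line 0 genes became 23 without the filter, 1 of them listed. Between the lines in vehicle 2240 genes became 403 with Alb. The 2 listed genes became 1 with DESeq2, the replicate block, Alb or thinning, and 1 to 2 without single libraries. Under ivermectin 3008 genes became 1906 after thinning, and 4 listed genes became 3 to 4 without single libraries. For the interaction 24 genes became 15 with DESeq2, 82 without the filter, 47 with the block, 0 with Alb and 13 after thinning, and 8 to 45 without single libraries. The cause of these shifts was not tested.

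No listed gene past the threshold changed sign under the alternatives run. With Alb, Nr4a2 (-0.0104) and Crem (-0.0702) turned for ivermectin in the wild-type line, as did Nr4a1 (0.29) and Rgs2 (0.10) for the interaction. After thinning Crem was at -0.0445 for ivermectin in the wild-type line and Rgs2 at 0.20 for the interaction. Leaving out single libraries gave, for ivermectin in the wild-type line, -0.0340 to 0.34 for Nr4a2, -0.0634 to 0.13 for Crem and -0.0717 to 0.79 for Rgs2. In the knockout-labelled line it gave -0.0137 to 0.19 for Crem and, in CPM, -0.69 to 0.47 for Npas4. Between the lines in vehicle it gave -0.61 to 0.25 for Rgs2. For the interaction it gave -0.0037 to 0.41 for Nr4a2, -0.0436 to 0.16 for Crem and -0.50 to 0.36 for Rgs2.

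The labels state no pairing of libraries by replicate number, and the main fit used no block. Same-numbered libraries deviated together with r from -0.0566 to 0.145 over 24 pairs, 2 of them over 0.1. The median r was 0.0216 for these pairs and -0.00484 for other numbers. Of the 16 libraries 9 correlated best with their own number. These values do not settle whether the numbers pair the libraries. With the replicate block Nr4a1 passed for ivermectin in the wild-type line (edgeR adjusted p = 0.000633) and Sik1 did not pass in vehicle (0.0548). Using only the libraries compared was not run for the interaction, which needs all of them. Depth limits the genes of few counts most, Nr4a3, Npas4, Arc, Rgs2 and Sik1.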
